A study of Mus musculus with 11 samples.

Results

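Old haematopoietic stem cells (HSCs) with high autophagy, AThi, were set against old HSCs with low autophagy, ATlo, over every chromatin accessibility peak in the authors' deposited table of that comparison. The table held 94410 peaks assigned to 20810 genes, which is the same peak set as in the other 2 tables of the series. Of the 11 ATAC-seq libraries, 3 were old AThi and 3 were old ATlo, labelled O1 to O3 in each fraction, and the other 5 were young. ATAC-seq reads out where a transposase can insert adapters into DNA, so a peak is a stretch of open chromatin and its mean normalised count is its level.

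All libraries came from purified bone marrow HSCs, taken at steady state from mice of the Gfplc3/Gfplc3 genotype. Both alleles of the mice thus carry a GFP-tagged LC3 reporter, in every group. The old AThi cells are the fraction with low GFP and the old ATlo cells the fraction with high GFP, and the young cells were not fractionated. The sort therefore uses the reporter's brightness, and the labels give no age in numbers, sex or number of animals per library. What the p-values weigh is the variation among the libraries, and that may be technical. In bulk ATAC-seq, fewer cells with an open site and a less open site in every cell cannot be told apart.

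Autophagy wraps cytoplasm in a double membrane and delivers it to lysosomes. LC3, a member of the Atg8 family, is attached to that membrane and partly degraded with the cargo, so GFP-LC3 dims as autophagy runs. HSCs are the largely quiescent cells at the root of blood formation, and old HSCs that keep autophagy active are known for a lower metabolic activity than old HSCs that do not. SOCS proteins shut down cytokine signalling through JAK and STAT, and AP-1 factors such as Fos and Jun answer acute stimuli.

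A peak was assigned to 38 of the 39 names in the HSC identity list, with a median level of 106 at their 60 promoter peaks. The median promoter level was 122 over all promoters, 118 for the megakaryocyte and platelet list, 80.2 for the myeloid list, 72.6 for the erythroid list, 63.1 for the stromal and endothelial list and 45.8 for the lymphoid list. Promoter levels of the lists overlapped, from 10.5 to 1224 in the HSC identity list and up to 346 in the lymphoid list, where 32 of 36 genes had a peak. These levels therefore do not set the HSC genes apart. No peak was assigned to the B-cell genes Cd79a, Ms4a1 and Vpreb1 or the T-cell gene Cd3g.

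No peak passed at an adjusted p under 0.05 in the authors' deposited DESeq2 Wald test (0 of 94410, 0.0%), and every adjusted p there was 0.999998. Differences below are therefore sizes and directions, not called changes. At an unadjusted p under 0.05 there were 1683 peaks, or 1.78% of all peaks. That is a smaller share than a threshold of 0.05 would give with no difference at any peak. Of the 1683, 687 had a higher value in AThi (0.728% of all peaks) and 996 a lower one (1.05%), so 40.8% of them were higher. Setting the median of the strongest promoters to 0, a shift of 0.09 on the log2 scale, gave 233 higher and 2055 lower peaks, or 10.2% higher. The same shift moved the median over all peaks of 23 of the 34 gene lists to the other side of 0, so directions of lists below are relative to the authors' scaling. The Wald statistic, the log2 difference over its SE, had an SD of 0.83 over all peaks, against 1.84 for AThi against young and 1.75 for ATlo against young. Those comparisons share the AThi or ATlo libraries with this one, and 9543 and 8721 peaks passed in them. The 95% interval of the difference lay within 1 log2 unit of 0 at 53.6% of all peaks and at 85.7% of promoter peaks.

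The sequences just before the start sites are shown because base composition is followed genome-wide below. They are the 2 promoters with the smallest p in each direction among genes with a single RefSeq start, and Socs3, whose promoter had the smallest p of the 31 named reference genes. Each run is the 250 bases before the start in RefSeq GRCm38.p6, with CpG dinucleotides in capitals.
Igsf11: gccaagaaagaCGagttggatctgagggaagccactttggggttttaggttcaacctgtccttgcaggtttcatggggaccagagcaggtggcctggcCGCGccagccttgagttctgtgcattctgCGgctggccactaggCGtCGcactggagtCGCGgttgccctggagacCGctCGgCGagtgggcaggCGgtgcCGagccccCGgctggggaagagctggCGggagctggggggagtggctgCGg
Zim1: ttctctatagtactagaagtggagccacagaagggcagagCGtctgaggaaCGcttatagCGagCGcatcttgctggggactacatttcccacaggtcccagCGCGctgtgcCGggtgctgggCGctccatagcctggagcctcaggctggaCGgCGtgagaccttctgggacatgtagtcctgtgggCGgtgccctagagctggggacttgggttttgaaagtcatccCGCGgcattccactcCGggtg
Chaf1a: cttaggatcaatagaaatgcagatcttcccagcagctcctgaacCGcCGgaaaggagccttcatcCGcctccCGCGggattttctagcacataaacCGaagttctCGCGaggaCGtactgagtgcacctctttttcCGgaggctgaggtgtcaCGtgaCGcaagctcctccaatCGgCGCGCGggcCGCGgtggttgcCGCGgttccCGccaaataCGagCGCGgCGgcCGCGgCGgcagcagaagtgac
H3c2: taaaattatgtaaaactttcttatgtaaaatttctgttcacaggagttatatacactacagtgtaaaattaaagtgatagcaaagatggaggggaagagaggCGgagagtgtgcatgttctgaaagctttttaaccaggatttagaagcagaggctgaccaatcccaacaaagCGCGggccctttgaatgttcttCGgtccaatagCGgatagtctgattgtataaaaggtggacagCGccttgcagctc
Socs3: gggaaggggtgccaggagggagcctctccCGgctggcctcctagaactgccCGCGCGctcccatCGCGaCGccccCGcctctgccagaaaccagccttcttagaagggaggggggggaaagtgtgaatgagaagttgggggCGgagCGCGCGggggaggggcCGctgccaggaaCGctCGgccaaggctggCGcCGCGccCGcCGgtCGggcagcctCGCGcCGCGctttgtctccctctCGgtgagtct
These runs lie at chr16:38902095-38902344 (plus strand), chr7:6696433-6696682 (minus), chr17:56040166-56040415 (plus), chr13:23752095-23752344 (plus) and chr11:117969367-117969616 (minus). They hold 16, 14, 28, 6 and 26 CpGs, at a GC content of 65.6%, 60.0%, 61.2%, 41.2% and 71.6%. The H3c2 run belonged to the lowest of 10 GC groups of promoters (over 300 bases) and the Socs3 run to the highest.

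At Igsf11, an adhesion molecule of the immunoglobulin superfamily, the levels implied by the authors' deposited table were 272 in AThi, 201 in ATlo and 182 in young HSCs. The difference of AThi from ATlo was 0.44 on the log2 scale (SE 0.16, unadjusted p = 0.00492) in the authors' deposited table. Zim1, an imprinted zinc finger gene, had implied levels of 55.0, 31.1 and 24.3 in the same order in the authors' deposited table, a log2 difference of 0.82 (SE 0.31). ATlo lay between AThi and young HSCs at both promoters, and only the AThi against young difference passed there in the authors' deposited table (adjusted p = 0.000862 and 0.000418, DESeq2). Both promoters were picked by a small p between the fractions, and the comparison with young HSCs shares the AThi libraries.

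Chaf1a encodes the large subunit of the chromatin assembly factor that loads histones onto newly copied DNA. In the authors' deposited table its promoter had implied levels of 81.3 in AThi, 125 in ATlo and 134 in young HSCs, a log2 difference of AThi from ATlo of -0.62 (SE 0.20, unadjusted p = 0.00244). H3c2 encodes a replication-dependent histone H3, and its promoter peak had implied levels of 34.1, 61.0 and 73.7 in the authors' deposited table, a log2 difference of -0.84 (SE 0.29). Socs3, which dampens cytokine receptor signalling, had implied levels of 607, 490 and 431 in the authors' deposited table, a log2 difference of 0.31 (SE 0.16, unadjusted p = 0.0572). The order of the 3 groups was thus reversed between Socs3 and the pair of Chaf1a and H3c2, with AThi at the extreme each time. All 3 promoters were picked by a small p between AThi and ATlo, which favours an outlying value in one fraction. The comparison with young HSCs shares the AThi libraries, so it is not separate evidence. Against young HSCs the AThi values of all 3 passed in the authors' deposited table (adjusted p = 0.0139, 0.00206 and 0.000583 for Socs3, Chaf1a and H3c2, DESeq2).

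Among the 10 peaks with the smallest p in either direction, the higher ones included Traf2, Mtss2 and Gbp10. A peak in intron 4 of Traf2, an adaptor of tumour necrosis factor receptors, on chromosome 2 (25424198 to 25424880, mm39) had implied levels of 65.0 in AThi, 33.0 in ATlo and 28.2 in young HSCs in the authors' deposited table. Its log2 difference of AThi from ATlo was 0.98 (SE 0.30, unadjusted p = 0.00114) in the authors' deposited table. The Traf2 promoter itself had a log2 difference of 0.19 (SE 0.15) in the authors' deposited table. Mtss2 appeared among the 10 with its promoter (log2 difference 0.55, SE 0.18) and with a peak 5054 bp upstream in intron 17 of Vac14 (1.20, SE 0.37) in the authors' deposited table. The other 12 peaks assigned to Mtss2 ranged from -0.41 to 0.45, on both sides of 0. Gbp10, an interferon-inducible GTPase gene, had a promoter peak of low level with implied values of 18.8 in AThi, 5.64 in ATlo and 19.2 in young HSCs in the authors' deposited table. Here ATlo was the group apart, and the ATlo against young difference passed, with a log2 difference of -1.77 in the authors' deposited table (SE 0.50 and adjusted p = 0.00772, DESeq2). The remaining peaks of this direction lay near Ccdc80, Prok2, Plxna4, Crispld1, Clic5 and Mga, with log2 differences from 0.58 (Mga, level 115) to 2.63 (Ccdc80, level 7.18) in the authors' deposited table.

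The highest level among the 10 lower peaks was at Adgrg1 (GPR56), an adhesion receptor of HSCs. Its promoter on chromosome 8 (95703221 to 95704196, mm39) had implied levels of 113 in AThi, 176 in ATlo and 147 in young HSCs in the authors' deposited table, with young HSCs between the 2 old fractions. The log2 difference of AThi from ATlo was -0.64 (SE 0.19, unadjusted p = 0.000757) in the authors' deposited table. The neighbouring peak at -3345 bp from that start differed by -0.58 (SE 0.23), while 2 further promoter peaks of Adgrg1 had -0.15 (SE 0.18) and 0.08 (SE 0.16), also from the authors' deposited table. A peak near Klra10, a gene of the Ly49 receptor cluster of natural killer cells, differed by -1.12 (SE 0.31) in the authors' deposited table. Upstream of Fam133b, 2 peaks differed by -2.80 (SE 0.77, level 12.1) and, in intron 5 of the cell cycle kinase gene Cdk6, by -1.27 (SE 0.37, level 31.0), whereas the Fam133b promoter had 0.06 (SE 0.17) in the authors' deposited table. The others were assigned to Pou4f3, Snora5c, Tnfsf8, Coro2a, Slc14a1 and Zdhhc21, with log2 differences from -1.31 to -0.81 in the authors' deposited table. Pou4f3 had the smallest p of all peaks in the authors' deposited table, 0.00019.

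**Figure D1:**
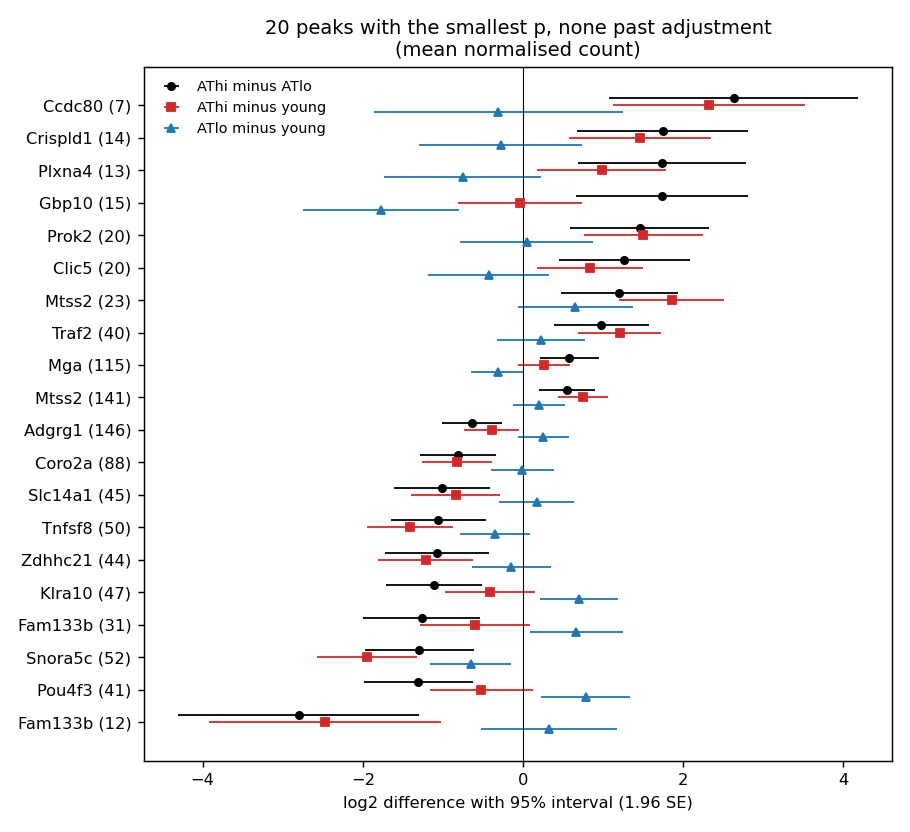
The 20 peaks with the smallest unadjusted p (10 in each direction), each labelled by its assigned gene and mean normalised count. Points are the authors' log2 differences and bars their 95% intervals for AThi minus ATlo (black circles), AThi minus young (red squares) and ATlo minus young (blue triangles). No AThi minus ATlo difference passed adjustment, and the comparisons share libraries.

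The difference between the fractions followed peak level. Over all peaks the median log2 difference was 0.01. Peaks were split into 10 level groups of equal size by mean normalised count, and among peaks that are not promoters the median went from -0.09 in the weakest group to 0.04 in the strongest. Among the 18102 promoter peaks within 1 kb of a start, it went from -0.06 in the weakest group (44.2% above 0) to 0.09 in the strongest (83.4% above 0). In that strongest group 13 promoters had an unadjusted p under 0.05 with a higher value in AThi (0.718%, against 0.972% of all promoter peaks). A lower value at that p was found at 1 (0.0552%, against 0.486%). The interval of every one of the group's 1811 promoters lay within 1 log2 unit of 0. The same promoters had median log2 differences from young HSCs of -0.22 in AThi and -0.31 in ATlo, so the strongest promoters lay below the young level in both old fractions and less so in AThi. These comparisons share libraries and are given side by side only. No depth or fraction of reads in peaks was given per library, and the part of such differences in this pattern was not tested.

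**Figure D2:**
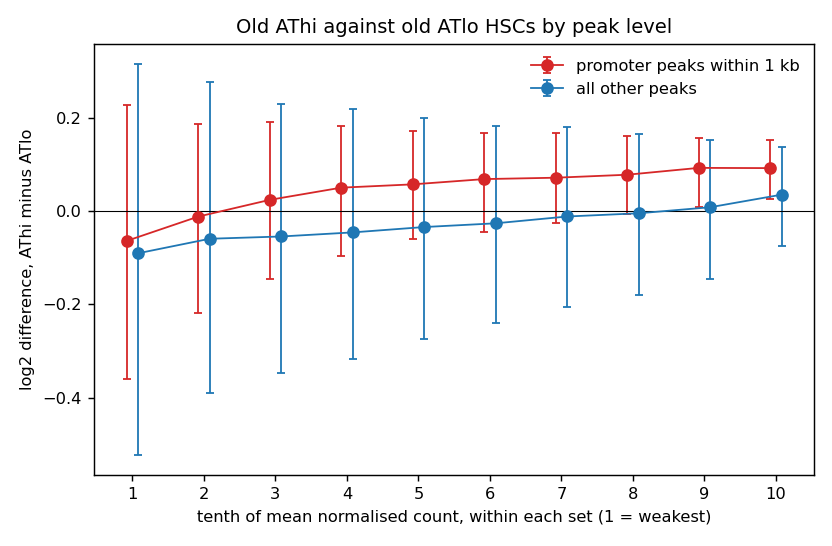
Median log2 difference of AThi from ATlo (y axis) by level group of mean normalised count (x axis, 1 is the weakest of 10) for promoter peaks within 1 kb (red) and all other peaks (blue). Bars run from the lower to the upper quartile of peaks and are not errors over libraries. Both sets climb with level, to 0.09 for promoters and 0.04 for other peaks in the strongest group.

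By peak class, promoters within 1 kb stood above the rest. Their median log2 difference was 0.06, and 11530 of 18102 (63.7%) lay above 0, against a median of -0.01 over the 76308 other peaks (48.0% above 0). At an unadjusted p under 0.05, 176 promoter peaks had a higher value in AThi (0.972%) and 88 a lower one (0.486%). First introns had 43 higher (0.436%) and 129 lower (1.31%), and later introns 143 (0.654%) and 302 (1.38%). Over all peaks the shares were 0.728% and 1.05%. Class medians were -0.03 for both kinds of intron, -0.02 for exons, -0.01 for distal intergenic peaks and for promoter peaks from 1 to 3 kb, and 0.03 for the 267 peaks in 5′ untranslated exons. Promoter peaks were also stronger, with a median level of 122 against 22.4 for the other peaks. Among peaks with a mean normalised count from 20 to 50 the promoter median was 0.00 and that of first introns -0.03, which leaves 0.02 between promoters and all other peaks of that band.

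**Figure D3:**
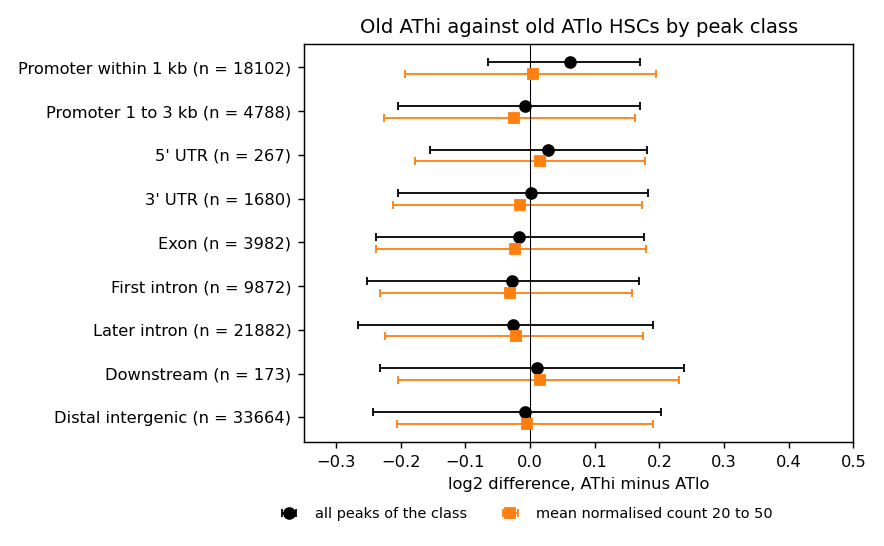
Median log2 difference of AThi from ATlo (x axis) by peak class (y axis, with the number of peaks), over all peaks of a class (black circles) and over peaks with a mean normalised count from 20 to 50 (orange squares). Bars run from the lower to the upper quartile of peaks. The promoter median of 0.06 is 0.00 within the level band.

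GC content of the promoter moved with the difference as well. RefSeq GRCm38.p6 windows of 300 bases (250 before and 50 after a start) were matched for 9349 promoter peaks of genes with a single start. The median log2 difference was 0.03 in the lowest of 10 GC groups (31.7% to 48.3%) and 0.12 in the highest (73.0% to 88.0%). In the highest group 742 of 909 promoters (81.6%) lay above 0. At an unadjusted p under 0.05, 17 were higher in AThi (1.87%, against 0.972% of all promoter peaks) and 1 lower (0.110%, against 0.486%). With 4 groups each of level and GC content, the median in the second level group went from 0.03 at the lowest GC content to 0.10 at the highest. In the strongest of the 4 level groups the corresponding medians were 0.07 and 0.10. Median GC content was 64.0% at the 88 matched promoters with an unadjusted p under 0.05 and a higher value, 56.2% at the 38 with a lower value, and 60.7% over all 9349.

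Short motifs were searched on both strands of the same 300 bases. GGGGCGGGG, a box bound by SP and KLF factors, was found in 22.7% of the 88 promoters, 10.5% of the 38 and 21.6% of all matched promoters, and in 11.4% of all 32851 RefSeq windows. The AP-1 word TGANTCA was found in 3.41%, 10.5% and 5.10%, and in 7.81% of all windows. STAT half-sites spaced as TTCNNNGAA were found in 3.41%, 7.89% and 6.75%, and in 8.30% of all windows, and the Socs3 run above holds 1. AAGATGGCG, read by YY1, was found in 5 of the 88 promoters (5.68%) and in none of the 38. Its share was 2.67% of all matched promoters and 1.40% of all windows. Promoters with it had a median log2 difference of 0.10 against 0.07 without it. With so few promoters per group these shares are descriptions, and a match is not evidence of binding.

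Medians also differed between chromosomes. Median log2 differences over all peaks were 0.08 on chromosome 19, 0.06 on chromosome 11 and 0.03 on chromosome 15, against -0.04 on X, and -0.02 on chromosomes 1, 3 and 18. Chromosomes 19 and 11 were above the genome-wide class median in 7 of the 7 peak classes with at least 20 peaks there, and X in 1 of 7. At promoters the medians were 0.12 on both chromosomes 19 and 11 and -0.01 on X. At an unadjusted p under 0.05, chromosome 19 had 39 peaks higher in AThi (1.37%) and 12 lower (0.421%). Chromosome 1 had 39 (0.620%) and 88 (1.40%), against 0.728% and 1.05% of all peaks. Y had 21 peaks with a median SE of 1.04, against 0.37 over all peaks.

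**Figure D4:**
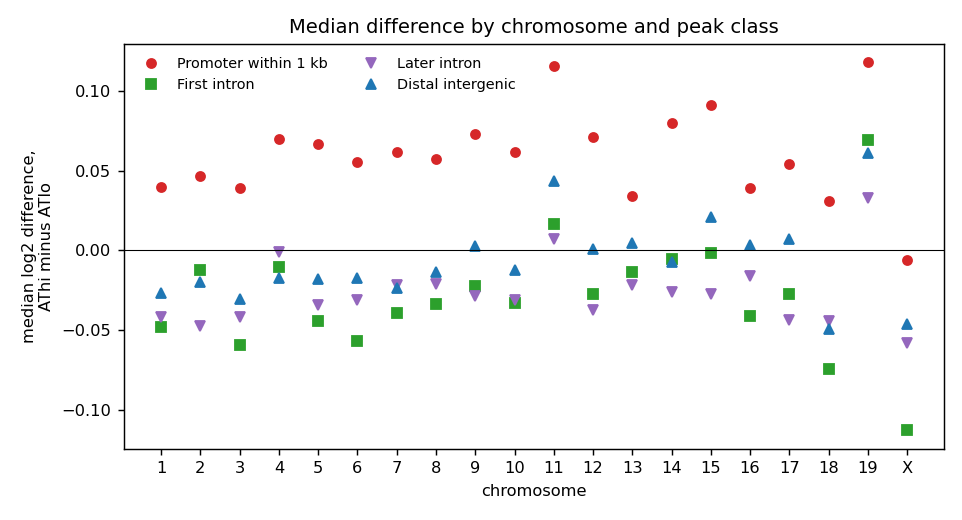
Median log2 difference of AThi from ATlo (y axis) for each chromosome (x axis) in 4 peak classes, by colour and symbol. Promoter medians are highest on chromosomes 11 and 19 (both 0.12), and all 4 classes are above 0 on those chromosomes alone.

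No peak assigned to the 5 Atg8 genes had an unadjusted p under 0.05 between the fractions sorted on autophagy. The promoter peak of Map1lc3b, which encodes LC3B, had implied levels of 221 in AThi, 219 in ATlo and 298 in young HSCs in the authors' deposited table. Its log2 difference was 0.01 (SE 0.19, unadjusted p = 0.963) in the authors' deposited table. Map1lc3a had 0.10 (SE 0.18), Gabarap 0.07 (SE 0.20), Gabarapl2 -0.03 (SE 0.15) and the stronger of 2 Gabarapl1 promoter peaks 0.14 (SE 0.21) in the authors' deposited table. Their intervals all contain 0 and all lie within 1 log2 unit of it. Ulk1, the kinase that starts autophagosome formation, had 0.23 (SE 0.20), Atg5 0.14 (SE 0.15), Atg7 0.08 (SE 0.25) and the cargo receptor gene Sqstm1 0.02 (SE 0.19) in the authors' deposited table. Tfeb, the transcription factor of lysosome genes, had -0.01 (SE 0.16) in the authors' deposited table.

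Of 35 core autophagosome genes 1 had a peak at an unadjusted p under 0.05 with a higher value in AThi and 0 a lower one, against 3.19% and 4.47% of all genes. That peak lay in an intron of Uvrag, which acts in autophagosome maturation (log2 difference 1.18, SE 0.55, level 11.1 in the authors' deposited table). Promoter medians were 0.11 for core autophagosome genes (23 of 34 above 0), 0.11 for selective autophagy receptors (19 of 23), 0.07 for lysosome genes (36 of 49) and 0.09 for mTORC1, AMPK and nutrient sensing genes (34 of 44), against 0.06 over all promoters. With the median of each promoter's level group removed these became 0.03, 0.03, 0.00 and 0.03. In the lysosome list, 2 of 203 peaks were higher (0.985%, against 0.728% of all peaks) and 3 lower (1.48%, against 1.05%) at that p, among them intron or distal peaks of the cathepsin genes Ctsc (0.92, SE 0.40) and Ctsz (0.91, SE 0.46) and of Laptm4b (-0.91, SE 0.41) in the authors' deposited table.

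The FoxO factors, which keep HSCs quiescent and can switch on autophagy genes, differed at their promoters by -0.00 (Foxo1, SE 0.16) and 0.12 (Foxo3, SE 0.18) according to the authors' deposited table. At an unadjusted p under 0.05, 3 of the 243 peaks of the FoxO list were higher in AThi (1.23%, against 0.728% of all peaks) and 5 lower (2.06%, against 1.05%), none of them at a promoter. A distal peak of S1pr1, a receptor of cell egress, had -1.46 (SE 0.54, level 14.5) in the authors' deposited table.

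Glucose transport and glycolysis genes had a promoter median of 0.07 (24 of 36 above 0), which was -0.02 after removal of level medians, against 0.06 over all promoters. Promoter differences were 0.07 (SE 0.16) at the glucose transporter gene Slc2a1, -0.15 (SE 0.16) at the hexokinase gene Hk2, 0.02 (SE 0.15) at Gapdh and 0.09 (SE 0.15) at Ldha in the authors' deposited table. At an unadjusted p under 0.05, 1 of the 141 peaks of this list was higher in AThi (0.709%, against 0.728% of all peaks). At that p 4 were lower (2.84%, against 1.05%), counts too small to set the list apart. The lower peaks of this list included a promoter peak of Pfkm (-1.15, SE 0.53, level 15.5) and a distal peak of Hk2 (-0.68, SE 0.33, level 45.6) in the authors' deposited table. Respiratory chain and ATP synthase genes had a promoter median of 0.06 (27 of 39 above 0), the same as all promoters to 2 decimals. The promoter median was 0.11 for mitochondrial biogenesis and dynamics genes (22 of 26) and 0.03 after removal of level medians. Promoters of cytosolic ribosomal proteins had 0.10 (35 of 42 above 0), or 0.04 after removal of level medians. Among them were Rps3 (0.40, SE 0.18) and Rplp1 (0.33, SE 0.17) in the authors' deposited table. The largest ribosomal promoter difference, 0.43, lay on chromosome 11. Ribosomal promoters lay below young HSCs in both fractions, with medians of -0.25 in AThi and -0.40 in ATlo.

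The SOCS and AP-1 lists had the highest promoter medians of the 34 lists. Heat shock proteins and chaperones had 0.07 and antioxidant defence genes 0.05, or -0.02 and -0.01 after removal of level medians. All 8 promoter peaks of the SOCS family had a log2 difference above 0, from 0.05 (Socs1, SE 0.15) to 0.31 (Socs3, SE 0.16) in the authors' deposited table, with a median of 0.16 (0.08 after removal of level medians). Of 21 AP-1 promoter peaks 16 lay above 0, also with a median of 0.16 (0.07 after removal). Above 0 lay 63.7% of all promoter peaks. The share was 73.2% in the promoter level group that holds both lists' median levels (257 for SOCS, 209 for AP-1). With so few promoters, the signs do not set these lists apart. Maff, a small Maf factor, had implied levels of 568 in AThi, 447 in ATlo and 529 in young HSCs, a log2 difference of 0.35 (SE 0.15, unadjusted p = 0.0193) in the authors' deposited table. The promoter peaks of Fos and Jun nearest their starts had 0.14 (SE 0.19) and -0.02 (SE 0.16), by the authors' deposited table. NF-κB genes had a promoter median of 0.10 (26 of 39 above 0), which was 0.01 after removal of level medians, and over all their 242 peaks -0.01. At an unadjusted p under 0.05, 1 of these peaks was higher (0.413%, against 0.728% of all peaks) and 5 were lower (2.07%, against 1.05%). None of the 8 SOCS genes and 1 of the 15 AP-1 genes had a peak higher in AThi at that p, where 3.19% of all genes did.

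**Figure D5:**
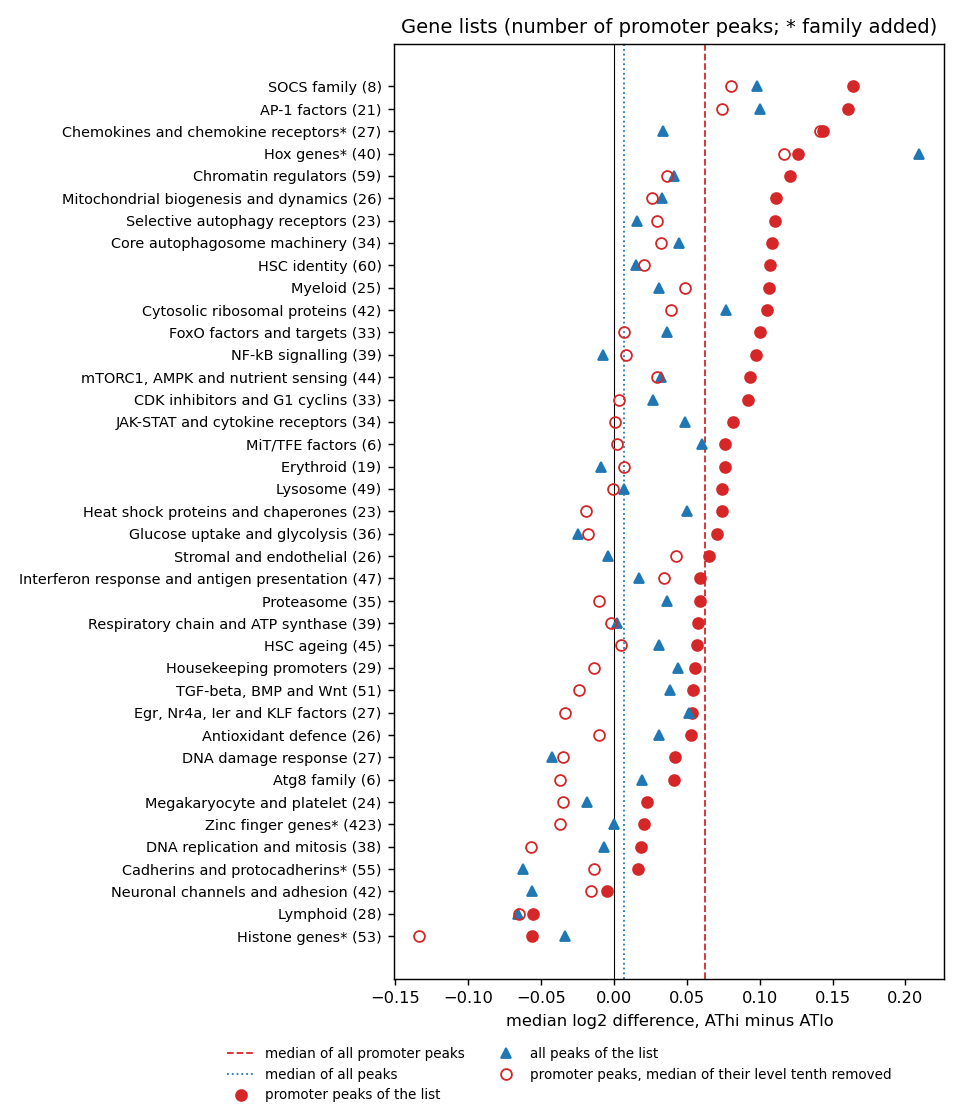
Median log2 difference of AThi from ATlo (x axis) for each gene list (y axis, with its number of promoter peaks): promoter peaks (filled red circles), promoter peaks with the median of their level group removed (open red circles) and all peaks of the list (blue triangles). Vertical lines mark the medians of all promoter peaks (0.06) and of all peaks (0.01), and starred families were added after values were seen. SOCS and AP-1 promoters are highest at 0.16, and lymphoid and histone promoters lowest at -0.06.

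Promoters of the HSC identity list had a median of 0.11 (41 of 60 above 0), against 0.06 over all promoters (63.7% above 0). After removal of level medians it was 0.02. Of its 414 peaks, 6 were higher in AThi at an unadjusted p under 0.05 (1.45%, against 0.728% of all peaks) and 5 lower (1.21%, against 1.05%). Gata2, a transcription factor of stem cells, had implied levels of 283 in AThi, 224 in ATlo and 151 in young HSCs and a log2 difference of 0.34 (SE 0.18, unadjusted p = 0.0674) in the authors' deposited table. Hlf, a transcription factor of stem cells, had 0.17 (SE 0.21) and Mecom -0.04 (SE 0.33) in the authors' deposited table. An intron peak of Bmi1, a Polycomb gene needed for self-renewal, had 0.53 (SE 0.23) and a distal peak of Ly6a, which encodes Sca-1, 1.02 (SE 0.43) in the authors' deposited table. The Kit gene, for the stem cell factor receptor, had an intron peak at -1.39 (SE 0.60, level 11.9) in the authors' deposited table.

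The promoter median of the HSC ageing list was 0.06 between the fractions (32 of 45 above 0), and 0.00 after removal of level medians. Against young HSCs the medians were 0.47 for AThi and 0.42 for ATlo, in comparisons that share libraries with this one. Clca3a1 had implied promoter levels of 107 in AThi, 119 in ATlo and 41.3 in young HSCs, and Cavin2 375, 338 and 176 in the authors' deposited table. Their differences between the fractions were -0.15 (SE 0.24) and 0.15 (SE 0.18), as the authors' deposited table gives them. The 1 member with an unadjusted p under 0.05 was Neo1, a netrin receptor gene, whose promoter had implied levels of 138, 101 and 77.9 and a log2 difference of 0.45 (SE 0.21) in the authors' deposited table. Cdkn2a, a senescence gene, had -0.30 (SE 0.24) and Cdkn1a, a cell cycle inhibitor gene, 0.21 (SE 0.24) in the authors' deposited table.

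Lymphoid genes had the lowest promoter median of the 34 lists, -0.06, with 11 of 28 promoter peaks above 0 and none at an unadjusted p under 0.05. Ebf1, a B-cell transcription factor gene, had -0.35 (SE 0.26), Flt3 -0.52 (SE 0.49) and Ikzf1 -0.28 (SE 0.32) at a promoter peak, while a Satb1 promoter peak had 0.29 (SE 0.25) in the authors' deposited table. Of the 32 lymphoid genes with a peak, 2 held one that was higher in AThi and 2 one that was lower at an unadjusted p under 0.05, against 3.19% and 4.47% of all genes. Myeloid promoters had a median of 0.11 (17 of 25 above 0), or 0.05 after removal of level medians. Cebpb was at 0.47 (SE 0.23) and the Fc receptor gene Fcgr3 at -1.19 (SE 0.55, level 17.6) in the authors' deposited table. Megakaryocyte and platelet promoters had 0.02 (15 of 24) and erythroid promoters 0.08 (12 of 19), or -0.03 and 0.01 after that removal. Of 213 peaks of the stromal and endothelial list, 3 were higher in AThi at that p (1.41%, against 0.728% of all peaks), near Runx2, Pecam1 and Vcam1, and 0 were lower (against 1.05%), counts too small to set the list apart. Its promoter median was 0.07 (17 of 26), or 0.04 after removal of level medians. The part of admixed cells in these values was not tested.

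DNA replication and mitosis promoters had a median of 0.02 (21 of 38 above 0), against 0.06 over all promoters, and -0.06 after removal of the level medians, and Mki67, a proliferation marker, had 0.03 (SE 0.19) in the authors' deposited table. Of the 114 peaks of that list, 1 was higher at an unadjusted p under 0.05 (0.877%, against 0.728% of all peaks) and 3 were lower (2.63%, against 1.05%). The higher one lay in exon 5 of Tyms, the thymidylate synthase gene, with implied levels of 151 in AThi, 95.7 in ATlo and 16.4 in young HSCs and a log2 difference of 0.66 (SE 0.28) in the authors' deposited table. Histone genes, a family chosen after values were seen, had a promoter median of -0.06 with 17 of 53 above 0, and -0.13 after removal of level medians. On chromosome 13, which holds the largest histone cluster, 30 of 36 histone promoters lay below 0 with a median of -0.08, beside a median of 0.03 over all 680 promoter peaks of that chromosome. Of the 53, 4 had an unadjusted p under 0.05 and a lower value in AThi (7.55%, against 0.486% of all promoter peaks), and 0 a higher one (against 0.972%). These were H3c2, H4c9 (-0.51, SE 0.23), H2ac4 (-0.60, SE 0.29) and H3c15 (-0.93, SE 0.46) in the authors' deposited table. Promoters of replacement histones, made outside S phase, had 0.26 (SE 0.15) at H2az2, 0.21 (SE 0.18) at H3f3a and 0.13 (SE 0.15) at H3f3b in the authors' deposited table, while a distal peak of H3f3a had -1.03 (SE 0.46). H2az2 and H3f3b lie on chromosome 11, where 58.7% of all peaks were above 0, so these values do not set replacement histones apart. Histone genes are near-identical copies, so how the authors treated reads that map to several places, which is not given in the sources used here, bears on these levels.

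Chromatin regulator promoters had a median of 0.12 (50 of 59 above 0) and 0.04 after removal of level medians. Of 292 peaks of that list, 5 were higher in AThi at an unadjusted p under 0.05 (1.71%, against 0.728% of all peaks) and 1 lower (0.342%, against 1.05%), including an intron peak of Ezh1, a Polycomb methyltransferase gene, at 0.54 (SE 0.23) in the authors' deposited table. Its implied levels were 137 in AThi, 94.1 in ATlo and 53.9 in young HSCs in the authors' deposited table. Hox genes, a family also chosen after values were seen, had a median of 0.21 over 71 peaks (55 above 0), against 0.01 over all peaks, and 0.13 over 40 promoter peaks (29 above 0). Hoxa3 had the smallest p of the promoters (0.35, SE 0.17) and Hoxa9, which maintains stem cells, had 0.28 (SE 0.20), while Hoxa5 had -0.35 (SE 0.26) and a Hoxb5 peak -0.45 (SE 0.34) in the authors' deposited table. By cluster, 10 of 11 Hox promoter peaks on chromosome 11 lay above 0, where 73.5% of all promoter peaks did, 8 of 13 on chromosome 6 (61.1% of all), 7 of 10 on chromosome 15 (69.0%) and 4 of 6 on chromosome 2 (60.2%).

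For genes with several peaks, agreement in direction within the gene was examined. Of 7068 genes with at least 5 peaks, 117 had every peak above 0 and 102 every peak below. Neat1, a long noncoding RNA that builds paraspeckles, had 6 of 6 peaks above 0, from 0.07 to 0.34, and Mdm4, an inhibitor of p53, 5 of 5, from 0.16 to 0.94. Neat1 lies on chromosome 19, where 61.5% of all peaks were above 0, and Mdm4 on chromosome 1, where 47.6% were. The Neat1 peaks are close neighbours with a median level of 229. In the strongest of 10 level groups of all peaks, 73.5% were above 0, so agreement in sign does not set Neat1 apart. The other genes with the largest mean Wald statistic were Unc93a2, Rarg, Jph2, Ppp1r3g, Casd1 and Rab4a. Gpr55, a lipid receptor gene, had 6 of 6 peaks below 0, from -1.47 to -0.11. Cers6, a ceramide synthase gene, had 9 of 11 peaks below 0, of which 3 had an unadjusted p under 0.05. Tma16 had 7 of 7 below 0, and Tacr1, Snord17, Ccdc97, Kcnj12 and Clptm1l completed the lower end. None of these peaks passed adjustment, and the mean over a gene's peaks carries no test of its own.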

How the data were processed

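Accessibility was measured by ATAC-seq in 11 HSC libraries, of which 3 AThi and 3 ATlo libraries enter this comparison. Per the submitters' processing notes, the tools included Trim Galore with cutadapt, BWA, MACS2, then featureCounts, DESeq2 and ChIPseeker. No versions are given, and the builds named are GRCm38 and mm39. Handling of duplicates, of the transposase offset and of mitochondrial reads is not given in the sources used here. Peak coordinates are mm39, 1-based, since the gene positions in the tables differ from those of RefSeq GRCm38.p6.

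The authors deposited 3 tables of comparisons over the same peaks. The deposited mean per peak is a signal value, a normalised count. The authors' log2 fold changes come with SEs. The Wald score is the authors' deposited statistic, and the deposited p-values were used as they stand. The authors' other columns hold positions, classes and nearest genes. The tables held 0 columns of values per sample, although counts had been thought possible, so no model was refitted and depth per library is unknown. Whether the authors' fit used the pairing is not given in the sources used here.

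Group levels are implied values: the authors' mean was divided among groups by their fold changes, taking it as the mean of 11 libraries. Intervals of 95% take the authors' SE and a normal distribution. Promoter peaks lie within 1 kb of a start. The 10 level groups were formed by mean normalised count, within promoters or within other peaks. A list's peaks are those assigned to its genes, and a peak near a gene does not measure that gene's expression. Of 973 list genes, 931 had a peak. RefSeq GRCm38.p6 matched 20791 of 20810 gene identifiers and supplied promoter sequences.

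A few list members are not reported here. Members, the 34 lists and the comparisons were chosen with earlier results of these data known. Named genes were the 10 peaks with the smallest p in each direction, up to 3 peaks with the smallest p per list, 31 reference promoters and the 8 genes in each direction with the largest mean Wald statistic among genes with at least 5 peaks, passing over predicted genes. Other members of the SOCS, Atg8, AP-1, lymphoid and ribosomal lists, and the histone, Hox, zinc finger, chemokine and cadherin families, were named after values were seen. Zinc finger genes had a promoter median log2 difference of 0.02 over 423 peaks, chemokine and chemokine receptor genes 0.14 over 27, and cadherins 0.02 over 55.

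Scripts used Python 3.11.15, pandas 2.3.3, numpy 2.4.6, scipy 1.17.1 and matplotlib 3.10.9, and were tested on simulated data. Alternatives were minimum levels of 10 and 50, promoter peaks alone, other centrings, SE weighting and level bands.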

Additional observations from a re-analysis of the deposited data

How the results depend on the processing

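No peak passed after readjustment over peaks with a mean normalised count of at least 10 or of at least 50, or over promoter peaks alone. Setting the median of the strongest of the 10 promoter level groups to 0, a shift of 0.09, changed the unadjusted counts most: 233 peaks were higher and 2055 lower, or 10.2% higher against 40.8% as deposited, and still 0 passed adjustment. Under that centring the median of all peaks was -0.086, 2 of the 34 lists had a median above 0 in place of 25, and 33 genes had every peak above 0 in place of 117. The gap between promoters and other peaks was 0.08, and 0.020 at a mean normalised count from 20 to 50, an alternative chosen after seeing the data. The removal of level medians was also chosen after seeing the data, and left 21 lists above 0. A minimum level of 10 gave 624 higher and 876 lower peaks, and moved 1 of the 34 list medians by over 0.05. Taking a list's promoter peaks alone in place of all its peaks moved 19 medians by over 0.05, put 7 on the other side of 0 and left 32 above 0. No paired analysis was possible because the tables hold no values per library, and leaving out each library in turn was not run for the same reason. Precision follows level: the median SE was 0.74 in the weakest group of peaks that are not promoters and 0.16 in the strongest promoter group.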

Other observations

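Some list members outside the account above had values worth a second look. The promoter of Srxn1, an antioxidant enzyme gene, had implied levels of 410 in AThi, 321 in ATlo and 333 in young HSCs in the authors' deposited table (0.35, SE 0.15), and the promoter of Polr2a, the large subunit of RNA polymerase II, 727, 576 and 724 (0.34, SE 0.15). The Brca1 promoter had a log2 difference of 0.29 (SE 0.14) in the authors' deposited table. A distal peak of Klf9 at a mean level of 732 had 0.36 (SE 0.15) in the authors' deposited table, with ATlo the lowest of the 3 groups. An intron peak of Jak1, a cytokine signalling kinase gene, was at -0.51 (SE 0.21) by the authors' deposited table. No difference between the fractions passed adjustment.

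Neuronal channel and adhesion genes, a set with no known role in HSCs, had a promoter median of -0.00 between the fractions over 42 peaks, beside 0.79 for AThi and 0.95 for ATlo against young HSCs, which share libraries. Peaks over 1500 bp wide had a median of 0.07 (72.1% above 0) and peaks up to 500 bp one of -0.02 (47.7% above 0), with median levels of 274 and 13.6.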
